A study of Drosophila melanogaster with 16 samples.

Results

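The nuclear rRNA genes and rDNA pseudogenes of Drosophila melanogaster were followed in ribosomal-depleted RNA-seq libraries of S2 cells. They were taken as all genes of the deposited count table whose FlyBase symbol begins with 18SrRNA, 28SrRNA, 5.8SrRNA, 2SrRNA, 5SrRNA or pre-rRNA, with the pseudogenes (-Psi) included. This gave 136 of 17737 genes, made up of 5 for 18S, 12 for 28S, 8 for 5.8S, 7 for 2S, 100 for 5S and 4 for pre-rRNA, and 23 of the 136 were pseudogenes. S2 is a cultured line from embryos with features of hemocytes, the blood cells of flies. In the libraries labelled October, 4 had a knockdown of PARP1 by siRNA (KD) and 3 were labelled WT, with no knockdown or inhibitor. In those labelled December, 3 were KD, 3 were treated with 10 µM PJ34 for 16 h, an inhibitor of PARylation (PARPi), and 3 were WT. All groups share the parental S2 line, and the labels name no genotype, clone or separate culture for a replicate, so p-values measure the spread between these libraries, which may be technical.

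The large rRNAs of flies come from tandem repeats of rDNA on the X and Y chromosomes. RNA polymerase I transcribes each repeat into a long pre-rRNA, in which an external spacer precedes 18S rRNA and internal spacers separate 18S, 5.8S, 2S and 28S rRNA. The spacers are cut out and degraded, so spacer RNA marks precursors and their processing remnants rather than ribosomes. In Drosophila the 5.8S part is split and yields the short 2S rRNA, and the 5S rRNA comes from a separate cluster transcribed by RNA polymerase III. PARP1 is known as a nuclear enzyme that is also found in the nucleolus, where rRNA is made.

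The libraries held between 58531662 and 90439074 counts. Parp1, the target of the siRNA, was at 76.3, 81.3, 87.9 and 76.3 CPM in October KD libraries and at 95.3, 94.6 and 77.6 CPM in October WT libraries. CPM here means the count relative to the TMM-scaled total of its library, with TMM run among the libraries of a month. In December Parp1 was at 159, 167 and 137 CPM in KD, at 162, 146 and 155 CPM in PARPi and at 171, 181 and 159 CPM in WT. The Parp1 mRNA of the libraries labelled KD therefore overlapped with that of WT in both months (log2 fold change -0.15 ± 0.06 in October, adjusted p = 0.0962, and -0.14 ± 0.08 in December, adjusted p = 0.32, SE and edgeR), and KD stands here for the label. In October it was called lower in KD with no filter (0.0195), without KD replicate 3 (-0.19, 0.0392) and without WT replicate 3 (-0.24, 0.00417), and was -0.0995 without WT replicate 1 (0.294). The study checked the depletion on the protein, which was not analysed here. Of the 10 hemocyte and S2 genes listed, all had counts in all libraries and summed to between 936 and 1958 CPM of the plain totals, against 24.4 to 46.9 CPM for 8 genes of neurons, glia, muscle, fat body and germ line. Most of that second sum was elav. The first was led by Pvr and Ppn, with means of 551 and 412 CPM over the libraries. NimC1 (0.0788 CPM), lncRNA:roX1 (0.776) and Sr-CI (1.9) were low, and the rest averaged 8.88 to 168 CPM. Counts in all 16 libraries were also found for elav, Mhc and vas of the second list.

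Most annotated rRNA genes had no counts. Of the 136 genes, 120 were at 0 in all 16 libraries, 16 had at least 1 count and 14 had 10 or more counts in total. Together they held 28281 of 1228357613 counts, between 0.00114% and 0.00421% of a library. The libraries were depleted of rRNA, so these counts say nothing about the amount of rRNA in the cells. How far depletion or the counting of reads made this share low was not tested. By comparison the mitochondrial 16S-like mt:lrRNA alone took between 7.89% and 17.1% of the counts of a library. The other mitochondrial rRNA, mt:srRNA, took only 0.00707% to 0.0159%. The pre-rRNA genes held 21395 counts (75.7% of the 28281) and the 28S genes held 6541 (23.1%), all of the latter in pseudogenes. The 18S genes held 318 counts, the 5.8S genes 23 and the 5S genes 4, and the 2S genes held none.

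The position of a gene in the annotation went with whether it had counts. In the Ensembl annotation of BDGP6, 14 of the 136 genes lay wholly inside a pre-rRNA gene, and all 14 were at 0 in every library. They were the mature 18S, 5.8S, 2S and 28S genes of the repeats and 2 pseudogenes. A count of 0 allows a level of up to 0.00244 CPM over the 16 libraries together (3 counts), for counting error only. Reads that were dropped because they lie on 2 genes or match several copies would not appear, the sources used here do not state how such reads were handled, and their part in these zeros was not tested. Outside the 5S cluster, 22 genes had bases that no other gene covers, and 15 of them had counts. The 7 without counts were 30 to 123 bases long. The 5S genes form a cluster of 100 genes on 1 strand of chromosome 2R, with a median of 369 bases between starts and none overlapped by another gene. Of them 99 were at 0, and 5SrRNA:CR33452 had 4 counts, all in October WT replicate 3.

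In pre-rRNA:CR45845 and pre-rRNA:CR45847 the bases that no other gene covers lie in the spacers. Whether all counts of a pre-rRNA gene came from its uncovered bases was not tested. pre-rRNA:CR45845 (FBgn0267505) lies on the rDNA scaffold at 42623 to 49485 (plus strand, BDGP6) and is 6863 bases long, of which 1931 are not covered by another gene. These bases comprise 861 before 18S, 726 between 18S and 5.8S, 28 between 5.8S and 2S and 385 between 2S and 28S, less 69 bases that hold the gene mir-10404-1. It held 20726 counts, 73.3% of all counts in the 136 genes. pre-rRNA:CR45847 has spacers of the same 4 lengths at 66807 to 74924 on the scaffold and held 475 counts. pre-rRNA:CR45856 on the X chromosome held 180 and pre-rRNA:CR45846 on the scaffold held 14. No 28S gene lies inside pre-rRNA:CR45846, and its last uncovered stretch is the 460 bases after 2S, which may not be spacer only. Since repeats can be near-identical, the split of reads between these genes is uncertain. mir-10404-1 and mir-10404-2, the microRNA genes annotated within the spacer before 5.8S, were at 0 in all libraries.

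**Figure D1:**
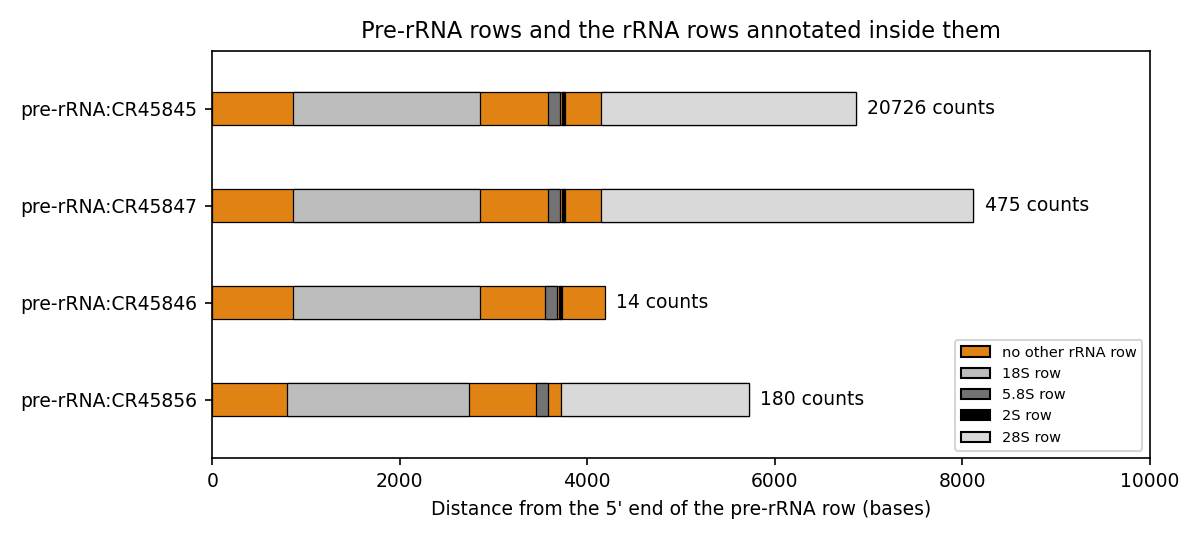
Map of the 4 pre-rRNA genes, each drawn from its 5′ end, with distance in bases on the x axis and the rRNA genes annotated inside it in grey and black. Orange marks bases with no other rRNA gene, and the number is the sum of counts over 16 libraries, which was 20726 for pre-rRNA:CR45845 and between 14 and 475 for the others.

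Per kb not covered by other genes, pre-rRNA:CR45845 averaged 12.2 CPM of the plain totals in October KD and 8.74 in October WT, and 10.5 in December KD, 5.03 in December PARPi and 7.21 in December WT. On the same scale the pseudogenes with the most counts were lower. 28SrRNA-Psi:CR45851 (FBgn0267511), on the scaffold at 35941 to 38740, averaged 1.38 in October KD and 1.27 in October WT, and between 0.288 and 0.525 in the December groups. 28SrRNA-Psi:CR45859 (FBgn0267519), on the X chromosome at 23214452 to 23217140, averaged 1.35 in October KD and 0.944 in October WT, and between 0.299 and 0.587 in the December groups. The short 28SrRNA-Psi:CR45860, 357 bases on the X chromosome, averaged between 0.447 and 1.16 over the 5 groups.

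Summed by species, without a test, the pre-rRNA genes were at 18.9 to 22.1 CPM of the plain totals in December KD, at 9.04 to 11.5 in December PARPi and at 11.8 to 17.2 in December WT. The 3 KD libraries were above all others of the month and the 3 PARPi libraries were below all WT libraries. In October they were at 22.4 to 28.6 in KD and at 15.3 to 19.5 in WT, again with no overlap. Of the pre-rRNA counts 96.9% were of pre-rRNA:CR45845, so this sum is not independent of that gene. TMM-scaled, December KD replicate 3 of that gene at 17.12 CPM lay under WT replicate 1 at 17.36 CPM. The 28S pseudogenes were at 3.79 to 4.60 in December KD, at 2.00 to 3.16 in December PARPi and at 2.17 to 2.58 in December WT. KD stood above both other groups, while PARPi spanned WT. In October the 28S pseudogenes were at 8.86 to 12.2 in KD and at 7.01 to 9.24 in WT, which overlapped. The 18S sum, from the pseudogene 18SrRNA-Psi:CR41602 alone, was at 0.0854 to 0.196 in December KD, at 0.0466 to 0.488 in December PARPi and at 0.189 to 0.224 in December WT, and at 0.117 to 1.28 in October KD and 0.187 to 0.275 in October WT.

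Genes were tested across the whole table with edgeR's quasi-likelihood test, and a gene was called at a Benjamini-Hochberg adjusted p below 0.05. Of the 136 genes, 13 had 10 or more counts in the December libraries and 13 in the October libraries. For PARPi vs. WT, 1 of 13 was called, lower in PARPi, against 0.29% of all genes tested called and 0.136% called lower. For KD vs. WT in December, 2 of 13 were called, both higher in KD, against 7.73% of all genes called and 2.08% called higher. For KD vs. PARPi, 3 of 13 were called, all higher in KD, against 5.52% called and 2.98% called higher. For KD vs. WT in October, 4 of 13 were called, all higher in KD, against 27.8% called and 13.8% called higher. The median log2 fold change of the 13 genes was 0.06 for PARPi vs. WT, 0.21 for KD vs. WT in December, 0.45 for KD vs. PARPi and 0.70 for KD vs. WT in October, where the medians of all genes tested were -0.0099, 0.015, 0.0055 and 0.012. The comparisons within December share libraries, so their counts are not independent of each other, and genes with few counts limit what could be called.

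The precursor pre-rRNA:CR45845 was lower in PARPi than in WT and higher in KD than in PARPi. In December it was at 19.6, 19.6 and 17.1 CPM in KD (1888, 1574 and 1531 counts), at 8.77, 11.9 and 9.13 CPM in PARPi (781, 915 and 791 counts) and at 17.4, 12.0 and 14.8 CPM in WT (1433, 1045 and 1196 counts). The PARPi libraries lay below every WT library, although PARPi replicate 2 at 11.91 CPM and WT replicate 2 at 11.95 CPM nearly met. PARPi averaged 9.94 ± 1.72 CPM and WT 14.7 ± 2.71 CPM (SD, n = 3 each). On the log2 scale this was -0.57 ± 0.12 (SE, 0.675-fold, edgeR adjusted p = 0.0375). The direction was the same under all 13 alternatives, but the call was lost in 6 of them. The adjusted p was 0.0935 without PARPi replicate 1, 0.338 without PARPi replicate 3, 0.222 without WT replicate 1, 0.19 without WT replicate 3, 0.0808 with filterByExpr and 0.0605 when only PARPi and WT were fitted.

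KD averaged 18.8 ± 1.42 CPM of pre-rRNA:CR45845 against the PARPi mean of 9.94 ± 1.72 CPM (SD, n = 3 each), and all 3 KD libraries were above all 3 PARPi libraries. The log2 fold change was 0.92 ± 0.12 (SE, 1.89-fold, edgeR adjusted p = 6.2e-05), and it was called under all 13 alternatives. Against WT the difference in December was smaller. KD averaged 18.8 ± 1.42 CPM and WT 14.7 ± 2.71 CPM, and KD replicate 3 at 17.12 CPM lay just under WT replicate 1 at 17.36 CPM. The log2 fold change was 0.35 ± 0.11 (SE) and was not called (edgeR adjusted p = 0.0631). It was called with DESeq2 (adjusted p = 0.0434), with no filter on counts (0.000754), with the replicate number as a block (0.0127), with only KD and WT fitted (0.0232), with both months in the fit (0.00049) and without WT replicate 1 (0.0246). On plain totals the groups did not overlap, with 21.7, 20.3 and 18.7 CPM in KD and 16.9, 11.6 and 13.3 CPM in WT. The gap between the scales follows from the TMM factors, which were 1.03 to 1.11 in KD and 0.90 to 0.972 in WT of December.

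In October the KD libraries had 24.7, 22.9, 22.3 and 29.0 CPM of pre-rRNA:CR45845 (1564, 1663, 1477 and 1851 counts), against 16.7, 16.5 and 14.0 CPM in WT (1103, 1029 and 885 counts). Every KD library was above every WT library. KD averaged 24.7 ± 3.04 CPM (SD, n = 4) and WT 15.7 ± 1.51 CPM (SD, n = 3). The log2 fold change came to 0.65 ± 0.08 (SE, 1.57-fold, edgeR adjusted p = 6.19e-06). It was called under all 13 alternatives, with an adjusted p of at most 0.000111 when a library was left out. Without KD replicate 4, which stands apart as described further on, it was 0.57 (adjusted p = 2.55e-05). The KD effect of October exceeded that of December by 0.32 ± 0.14 on the log2 scale (SE), which was not called (edgeR adjusted p = 0.141). This difference was called with no filter on counts (adjusted p = 0.0207) and without December WT replicate 2 (adjusted p = 0.0235). Of 14 genes tested for this interaction of KD and month, 0 were called by edgeR and 0 by DESeq2, and 2 had an unadjusted p under 0.05 in edgeR, against 14.1% of all genes called.

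**Figure D2:**
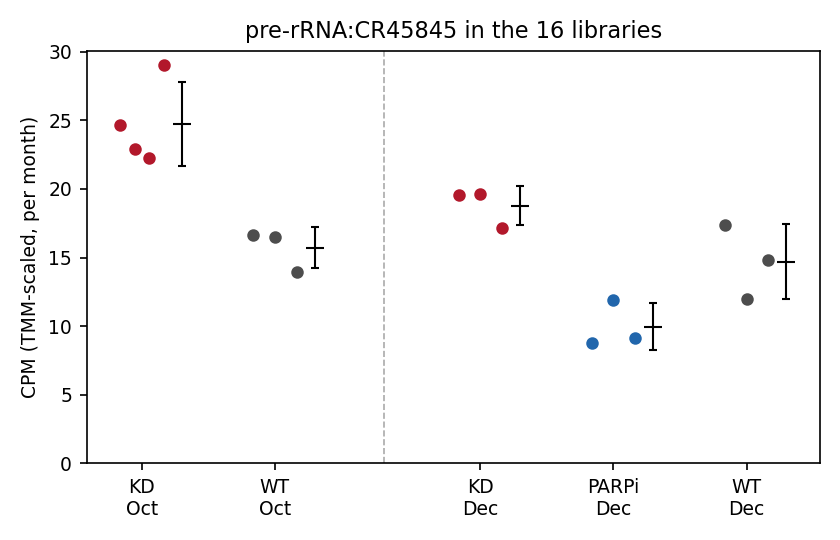
Level of pre-rRNA:CR45845 in CPM (TMM-scaled within a month) for each library of October KD and WT and of December KD, PARPi and WT, with bars for the mean and SD beside the points. The 4 October KD libraries lie at 22.3 CPM or more and the 3 WT libraries at 16.7 or less, and the 3 PARPi libraries at 11.9 or less lie below all 3 December WT libraries.

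The counting error of pre-rRNA:CR45845 was between 2.3% and 3.58% of its count, and its spread between replicates was between 7.59% and 18.4% of the mean, so the spread between libraries sets its precision. In bulk RNA a lower level in every cell and a smaller share of cells that carry the RNA cannot be told apart.

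The pseudogenes of 28S rRNA, which are truncated or interrupted copies annotated next to the repeats, were led by 2 genes that were higher in KD than in PARPi and WT of December, with PARPi and WT overlapping. 28SrRNA-Psi:CR45859 was at 1.43, 1.36 and 1.60 CPM in December KD, at 0.696, 1.02 and 1.004 CPM in PARPi and at 0.896, 0.732 and 0.928 CPM in WT. All KD libraries were above all libraries of both other groups, and PARPi overlapped with WT. KD averaged 1.46 ± 0.124 CPM and WT 0.852 ± 0.105 CPM (SD, n = 3 each). The log2 fold change came to 0.78 ± 0.19 (SE, edgeR adjusted p = 0.0142). For KD vs. PARPi it was 0.70 ± 0.19 (adjusted p = 0.0359), and for PARPi vs. WT it was 0.085 ± 0.20 (adjusted p = 0.923). In October it was at 4.17, 3.64, 3.39 and 4.14 CPM in KD and at 2.31, 1.89 and 2.92 CPM in WT, again without overlap. The October log2 fold change was 0.69 ± 0.14 (SE, edgeR adjusted p = 0.000736) and was called under all 13 alternatives.

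28SrRNA-Psi:CR45851 was at 1.18, 1.37 and 1.54 CPM in December KD, at 0.719, 0.937 and 0.843 CPM in PARPi and at 0.933, 0.903 and 0.705 CPM in WT. KD did not overlap with PARPi or WT. The log2 fold change was 0.68 ± 0.19 for KD vs. WT (SE, edgeR adjusted p = 0.0306), 0.71 ± 0.19 for KD vs. PARPi (adjusted p = 0.0328) and -0.029 ± 0.20 for PARPi vs. WT (adjusted p = 0.977). In October it was at 4.62, 3.56, 3.67 and 4.38 CPM in KD and at 3.85, 3.17 and 2.90 CPM in WT, which overlapped. The October log2 fold change of 0.29 ± 0.13 (SE) was not called (edgeR adjusted p = 0.0922), except without October WT replicate 1 (adjusted p = 0.0226), and the difference between the months was not called (interaction -0.38 ± 0.22, adjusted p = 0.288).

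The December calls of both pseudogenes rest on few libraries. For KD vs. WT, CR45859 was not called without KD replicate 1 (adjusted p = 0.0552), KD replicate 3 (0.102), WT replicate 2 (0.0883) or WT replicate 3 (0.0517). CR45851 was not called without KD replicate 1 (0.0552), KD replicate 2 (0.0621), KD replicate 3 (0.176), WT replicate 2 (0.0763) or WT replicate 3 (0.167). For KD vs. PARPi, CR45859 was called only without KD replicate 2 (0.0409), and leaving out KD replicate 1 gave 0.113, KD replicate 3 gave 0.167, PARPi replicate 1 gave 0.0849, PARPi replicate 2 gave 0.0509 and PARPi replicate 3 gave 0.0951. CR45851 was called only without PARPi replicate 2 (0.0461), and leaving out KD replicate 1 gave 0.0534, KD replicate 2 gave 0.0543, KD replicate 3 gave 0.174, PARPi replicate 1 gave 0.0657 and PARPi replicate 3 gave 0.132. With only KD and PARPi fitted, neither was called (0.0596 for CR45859 and 0.0513 for CR45851). The direction was kept in each of these fits.

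**Figure D3:**
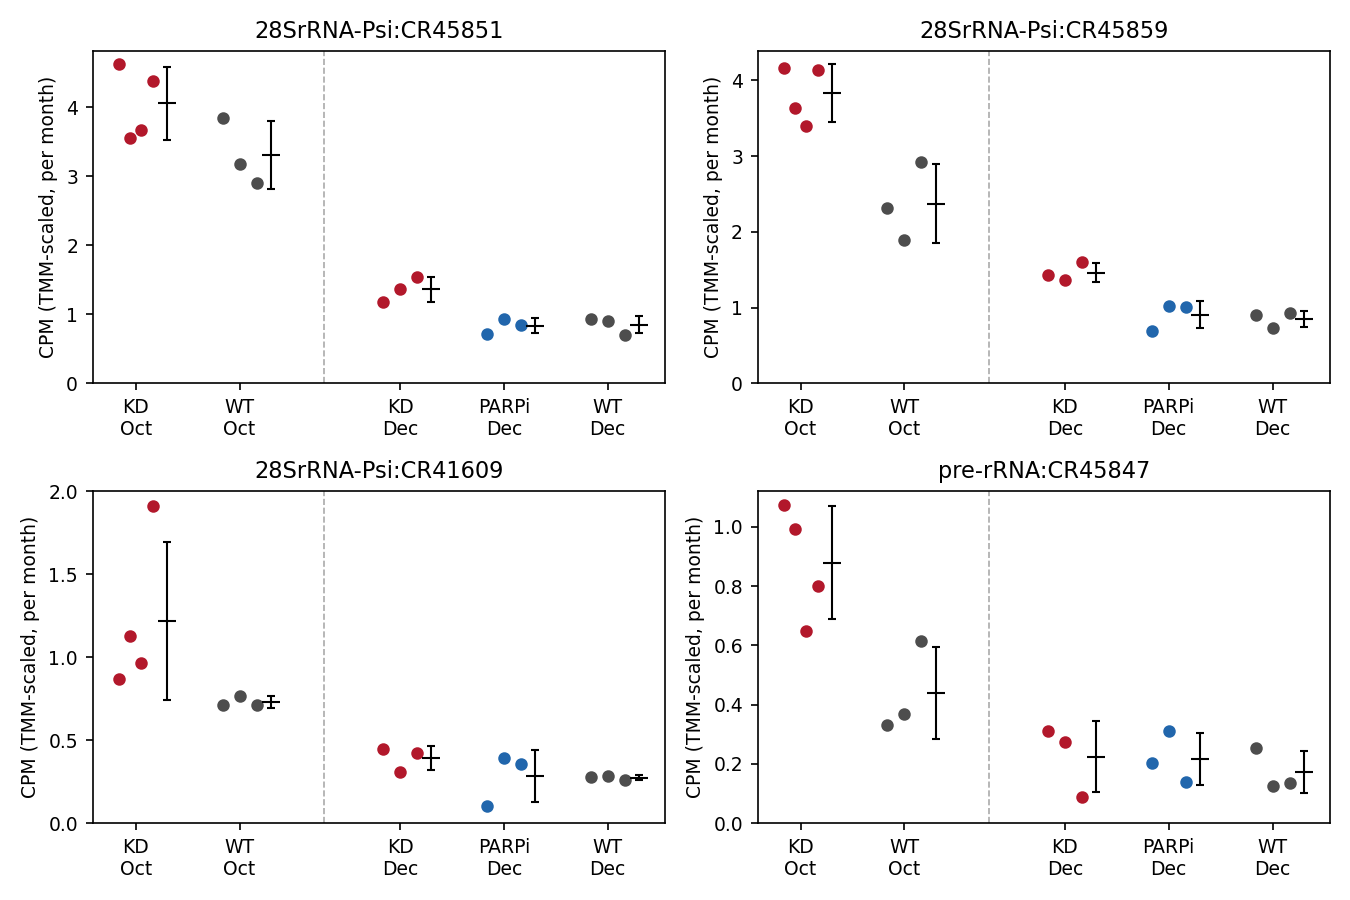
Levels of 28SrRNA-Psi:CR45851, 28SrRNA-Psi:CR45859, 28SrRNA-Psi:CR41609 and pre-rRNA:CR45847 in CPM (TMM-scaled within a month) for each library, with bars for the mean and SD beside the points. In December KD lies above PARPi and WT for 28SrRNA-Psi:CR45851 and 28SrRNA-Psi:CR45859, and for 28SrRNA-Psi:CR41609 the October KD mean is raised by replicate 4 at 1.91 CPM.

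28SrRNA-Psi:CR41609 (FBgn0085819), 895 bases on the X chromosome, was at 0.868, 1.13, 0.966 and 1.91 CPM in October KD and at 0.710, 0.770 and 0.710 CPM in October WT. All KD libraries were above all WT libraries, and replicate 4 was far above the others. The log2 fold change was 0.74 ± 0.26 (SE, edgeR adjusted p = 0.0351). Without KD replicate 4 it was 0.44 (adjusted p = 0.199), and the call was also lost without KD replicate 2 (0.0517), without WT replicates 1 (0.0704), 2 (0.0807) and 3 (0.0932), and when the replicate number was a block (0.188). In December it was at 0.445, 0.311 and 0.425 CPM in KD, at 0.101, 0.391 and 0.358 CPM in PARPi and at 0.279, 0.286 and 0.260 CPM in WT, and none of these comparisons was called by edgeR. KD vs. WT was called in the fit of both months (edgeR adjusted p = 0.0282), whose 1 KD effect is shared by October and December.

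The second precursor gene of the scaffold, pre-rRNA:CR45847, was at 1.07, 0.993, 0.649 and 0.800 CPM in October KD and at 0.332, 0.369 and 0.616 CPM in October WT. The groups did not overlap, and the log2 fold change was 1.0 ± 0.28 (SE, edgeR adjusted p = 0.0114). It was not called without WT replicate 1 (adjusted p = 0.0506) or WT replicate 2 (adjusted p = 0.0601). In December it had 30, 22 and 8 counts in KD, 18, 24 and 12 counts in PARPi and 21, 11 and 11 counts in WT, so the groups overlapped at counts whose error reaches 35.4% of the value, and no comparison was called. Its log2 fold change for PARPi vs. WT was 0.33 ± 0.49 (SE, adjusted p = 0.855), an interval wide enough to hold the -0.57 of pre-rRNA:CR45845 within 2 SE.

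**Figure D4:**
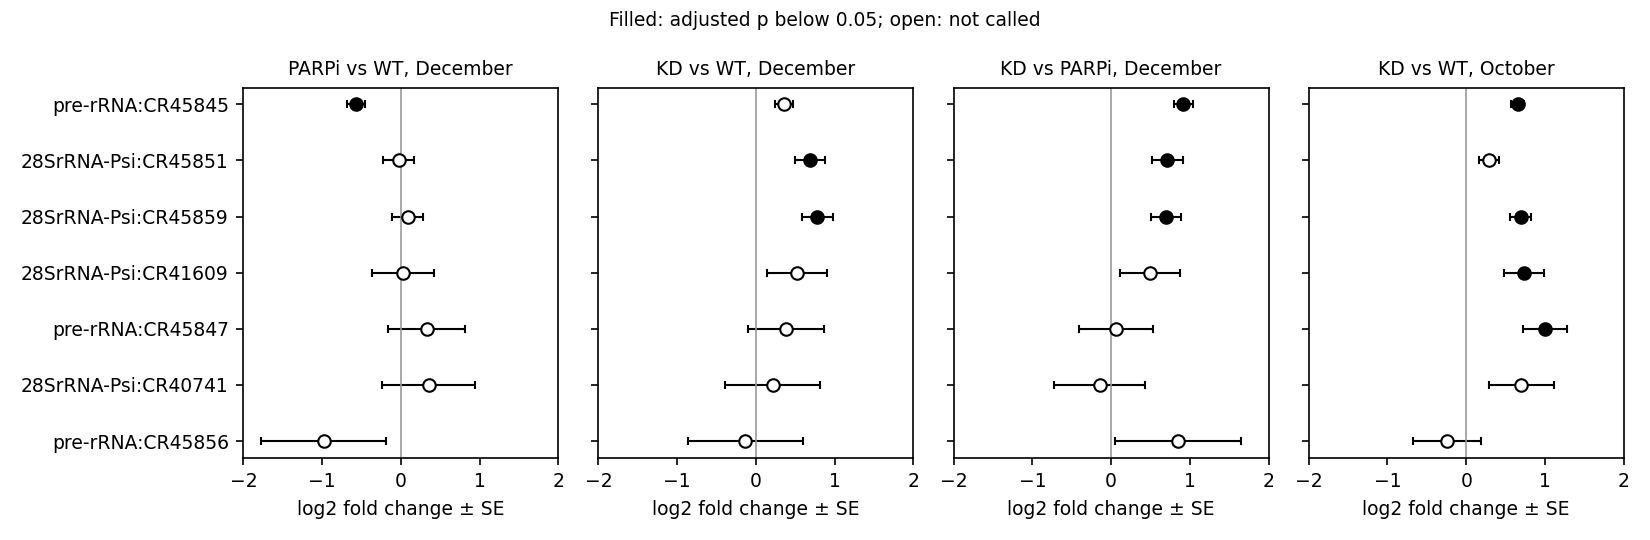
Log2 fold changes with their SE for 7 genes in 4 comparisons, with filled points called by edgeR (adjusted p below 0.05) and open points not called. pre-rRNA:CR45845 is at -0.57 for PARPi vs. WT and at 0.92 for KD vs. PARPi, while 28SrRNA-Psi:CR45851 and 28SrRNA-Psi:CR45859 are near 0 for PARPi vs. WT and at 0.68 and 0.78 for KD vs. WT in December.

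The balance of pseudogene and precursor within a library needs no scaling between libraries. For each 100 counts of pre-rRNA:CR45845 there were 18.3, 18.7 and 24.6 counts of 28S pseudogenes in December KD, 22.0, 28.3 and 27.7 in PARPi and 15.3, 19.5 and 16.3 in WT. PARPi lay above WT without overlap, while KD overlapped with both. In October there were 44.2, 42.9, 41.2 and 44.4 in KD and 49.3, 39.8 and 53.0 in WT, which overlapped. No test was made on this ratio.

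The other genes with 10 or more counts were not called by edgeR in a comparison within December or October. pre-rRNA:CR45856 had 2 to 31 counts in a library, 28SrRNA-Psi:CR40741 had 4 to 32, 28SrRNA-Psi:CR40596 had 11 to 59, 28SrRNA-Psi:CR45860 had 6 to 41, 28SrRNA-Psi:CR45848 had 2 to 14, and 28SrRNA-Psi:CR45855 had 0 to 10. 5.8SrRNA-Psi:CR45863 and pre-rRNA:CR45846 had at most 4 counts in any library. 28SrRNA-Psi:CR40596 came nearest to a call, with a log2 fold change of 0.86 ± 0.35 for KD vs. WT in October (SE, edgeR adjusted p = 0.0741). It was called with no filter (0.0385), without KD replicate 3 (0.0379) and without WT replicate 1 (0.0382), and was 0.59 with the block (0.26) and 0.59 without KD replicate 4 (0.277). The 4 counts of the single 5S gene and the 2 counts of 28SrRNA-Psi:CR45853 were not tested.

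The pseudogene of 18S rRNA marked 2 libraries that stood apart. 18SrRNA-Psi:CR41602 (FBgn0085813), 1975 bases on the X chromosome, had 12, 20, 8 and 86 counts in October KD and 11, 14 and 17 in October WT. In December it had 17, 15 and 7 counts in KD, 4, 40 and 12 in PARPi and 19, 19 and 17 in WT. October KD replicate 4 and December PARPi replicate 2 were the highest of their months, and no comparison of this gene was called by edgeR with the filter on counts. With no filter KD vs. WT in October (adjusted p = 0.0209) and the interaction (0.0352) were called. Its log2 fold change for KD vs. WT in October was 1.13 ± 0.61 (SE, adjusted p = 0.191), and it was -0.18 when the replicate number was a block, where KD replicate 4 has no partner. In the same 2 libraries several structured RNAs, chosen after their values were seen, were also the highest of the month. 7SLRNA:CR32864, the RNA of the signal recognition particle, was at 0.819 CPM of the plain total in October KD replicate 4, against 0.205 to 0.259 in the other 6 libraries of the month, and at 0.427 in December PARPi replicate 2, against 0.0644 to 0.141 in the other 8. snRNA:7SKa, which binds the elongation factor P-TEFb, was at 18.3 CPM against 5.49 to 8.02 in October, and at 4.98 against 1.0 to 1.92 in December. RNaseMRP:RNA, the RNA of an endonuclease that cuts pre-rRNA, was at 11.8 CPM against 4.82 to 7.13 in October, and at 4.23 against 1.58 to 2.78 in December. RNaseP:RNA, of the related enzyme that matures tRNA, lay within the range of the other libraries in both months. October KD replicate 4 was the highest of its month in 8 of the 14 rRNA genes, and December PARPi replicate 2 in 7 of 14. These 7 include pre-rRNA:CR45846, with 1 count there and 1 in WT replicate 1. They also include pre-rRNA:CR45847, at 0.3124 CPM against 0.3107 CPM in KD replicate 1. The share of all genes that were highest in these 2 libraries was not counted. The part of this in the differences above was not tested, beyond the values without each library: without PARPi replicate 2 the log2 fold change of pre-rRNA:CR45845 for PARPi vs. WT was -0.71 (adjusted p = 0.00322), so it was larger without that library.

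**Figure D5:**
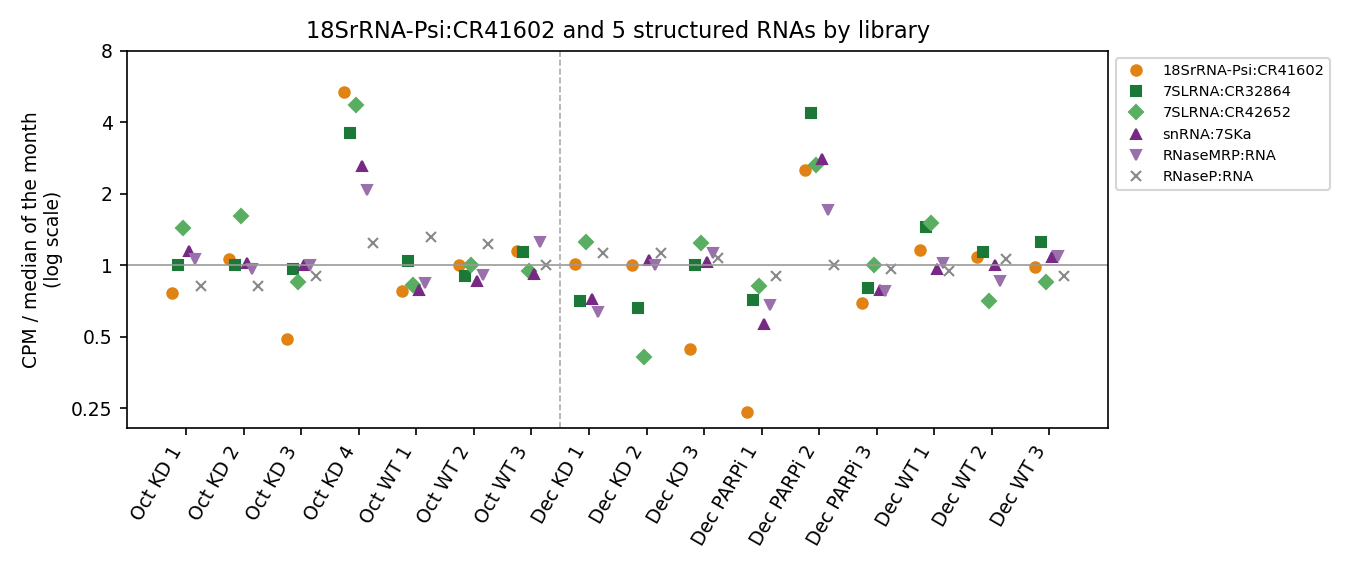
CPM of the plain totals for 18SrRNA-Psi:CR41602 and 5 structured RNAs in each library, divided by the median of its month, on a log axis. In October KD replicate 4 and December PARPi replicate 2 all but RNaseP:RNA lie well above 1, with 18SrRNA-Psi:CR41602 at 1.28 CPM against at most 0.275 in the other October libraries.

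The months were compared in WT. The comparison of October with December WT was made in 1 fit of the 13 WT and KD libraries, in which 6 of 14 rRNA genes were called, all higher in October, against 61.4% of all genes called and 31.1% called higher. The share of 6 in 14 lies between these percentages and is no result about the rRNA genes. 28SrRNA-Psi:CR45851 was at 3.657, 2.997 and 2.708 CPM in October WT and at 0.997, 0.966 and 0.753 CPM in December WT (TMM-scaled over both months), a log2 fold change of 1.78 ± 0.17 (SE, edgeR adjusted p = 6.85e-11). 28SrRNA-Psi:CR45859 was at 2.19, 1.79 and 2.72 CPM in October WT and at 0.958, 0.783 and 0.991 CPM in December WT, a log2 fold change of 1.30 ± 0.17 (adjusted p = 7.19e-08). pre-rRNA:CR45845 was at 15.8, 15.6 and 13.03 CPM in October WT and at 18.5, 12.8 and 15.8 CPM in December WT, which overlapped (log2 fold change -0.08 ± 0.11, SE, adjusted p = 0.498). The other called genes were 28SrRNA-Psi:CR41609 (1.22 ± 0.30, adjusted p = 0.000801), pre-rRNA:CR45856 (1.78 ± 0.56, adjusted p = 0.00723), pre-rRNA:CR45847 (1.16 ± 0.40, adjusted p = 0.0137) and 28SrRNA-Psi:CR40741 (1.19 ± 0.51, adjusted p = 0.0466). pre-rRNA:CR45847 was not called without October WT replicate 3 (0.108), December WT replicate 2 (0.0653) or December WT replicate 3 (0.0536), and of the fits with a library left out 28SrRNA-Psi:CR40741 was called only in that without October WT replicate 2 (0.0212), with 0.0507 to 0.182 in the others. 28SrRNA-Psi:CR40741 was also not called with no filter (0.0574), with the block (0.0552) or with only the groups compared (0.0617), and was called with DESeq2 (0.0471) and filterByExpr (0.0355). The median of all genes tested was 0.097 and moved to 0.12 with RLE size factors, so these values are to be read relative to it. Of the 10 hemocyte and S2 genes, 3 were called higher and 6 lower in October WT, with a median log2 fold change of -0.60, and they summed to 936 to 1182 CPM of the plain totals in October WT and 1533 to 1878 in December WT. Hml, a clotting factor, was lower in October WT (log2 fold change -4.28 ± 0.11, adjusted p = 4.03e-23) and Sr-CI, a scavenger receptor, was higher (3.18 ± 0.17, adjusted p = 2.97e-16). Month, culture and library preparation cannot be told apart.

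The mitochondrial rRNAs, which are made from mitochondrial DNA, were higher in KD in October and, for mt:lrRNA, lower in KD in December. mt:lrRNA was at 15.8%, 17.1%, 15.3% and 15.6% of all counts in October KD and at 9.84%, 12.1% and 12.4% in October WT (log2 fold change 0.65 ± 0.08, SE, edgeR adjusted p = 8.93e-06). In December it was at 7.89%, 9.09% and 8.14% in KD and at 9.95%, 9.12% and 10.7% in WT (-0.43 ± 0.13, adjusted p = 0.0404), a call that was kept without 1 of the 6 libraries and lost without each of the others, with adjusted p up to 0.219. It was also lost with DESeq2 (0.08) and filterByExpr (0.0638). For 1 KD effect shared by both months the log2 fold change was 0.15 (edgeR adjusted p = 0.599). The KD effect on mt:lrRNA differed between the months (interaction 1.1 ± 0.14, adjusted p = 1.26e-06). For mt:srRNA the log2 fold change for KD vs. WT was 1.08 ± 0.10 in October (SE, edgeR adjusted p = 8.26e-08). In December that of mt:srRNA was 0.099 ± 0.13 (adjusted p = 0.75). In fits whose library sizes left out the nuclear and mitochondrial rRNA genes, the numbers of nuclear rRNA genes called were the same for the 4 comparisons within a month.

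Genes that make and process rRNA were read for the same comparisons. Of 61 listed genes found in the table, for RNA polymerase I and III, small nucleolar particles, ribosome assembly, the exosome, U3 snoRNA and the 5S particle, 60 were tested. For PARPi vs. WT, 0 of 60 were called by edgeR, against 0.29% of all genes, and 0 by DESeq2, against 1.15%. An unadjusted p under 0.05 in edgeR was found for 7 of 60, against 1361 of all 11729 genes tested. For KD vs. WT in December, 5 of 60 were called, all lower in KD, with a median log2 fold change of -0.03 over the list. Of all 11729 genes tested, 7.73% were called, with 244 higher and 663 lower. The share of the list called is near that of all genes and is no result about the list. The genes called were Polr1H, a small subunit of RNA polymerase I (-0.40 ± 0.09, adjusted p = 0.0102), Maf1, a repressor of RNA polymerase III (-0.40 ± 0.09, 0.00897), RpL11, a ribosomal protein that binds 5S rRNA (-0.36 ± 0.09, 0.0181), and NHP2 (-0.34 ± 0.08, 0.0096) and Nop10 (-0.40 ± 0.08, 0.00567), core proteins of the particles that guide pseudouridylation of rRNA. For KD vs. PARPi, 0 of 60 were called by edgeR, against 5.52% of all genes, and 0 by DESeq2, against 7.81%. Here 8 of 60 had an unadjusted p under 0.05 in edgeR, against 2484 of all 11729 genes tested. For KD vs. WT in October, 12 were called higher and 5 lower of 60, with a median of 0.03. Of all 12096 genes tested, 27.8% were called, with 1665 higher and 1699 lower. The share called in both directions together is near that of all genes and is no result about the list. Whether the list leans higher was not tested. Non1, a nucleolar GTPase of large subunit assembly, was the most changed of the assembly genes by adjusted p (0.46 ± 0.05, 1.14e-06). RpL11 was higher in KD in October (0.29 ± 0.06, 0.000515) while Nop10 was lower (-0.34 ± 0.07, 0.000751). For the interaction of KD and month, 9 of 60 were called higher and 0 lower. Of all 12652 genes tested, 14.1% were called, with 1054 higher and 730 lower. With library sizes without rRNA genes these were 841 higher and 939 lower. The share called is near that of all genes and is no result about the list, and its direction was not tested. RpL11 was among the 9 (interaction 0.66 ± 0.09, edgeR adjusted p = 1.14e-05).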

How the data were processed

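RNA of S2 cells was depleted of rRNA and sequenced from both ends of each fragment. The authors aligned reads to BDGP6 with STAR 2.6 without trimming and counted them with HTSeq 0.10.0, and the deposited values are raw counts. Which annotation release was used, whether counting used strand and how reads with several matches were handled is not given in the sources read. Positions came from Ensembl release 115 of BDGP6, and 17599 of 17737 genes matched by FlyBase identifier. Chi-square per gene was 7.35 to 131 over the 18 pairs of libraries within groups, so no pair was counted as 1 sample.

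The quasi-likelihood test of edgeR 4.0.16 in R 4.3.3, with TMM scaling, was run on genes that had at least 10 counts in the fit. P-values were adjusted by Benjamini-Hochberg over all those genes, and the threshold was 0.05. The 9 December libraries were 1 fit, the 7 October libraries another, and the 13 KD and WT libraries of the 2 months were fitted together for the interaction and for WT. SE values were derived from the log2 fold change and the F statistic. Species sums are shares of plain totals, with no test. The scripts were tested on simulated data.

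Genes named with values have 10 or more counts in total and either a mean of at least 1 CPM in a group or a call in a comparison, others being given by their counts. 18SrRNA-Psi:CR41602, the structured RNAs, the hemocyte genes Hml and Sr-CI, and the low genes given by counts were named after their values were seen. The genes and lists were chosen with earlier results of these data known. Alternatives were RLE size factors, DESeq2 1.42.0, no filter and filterByExpr, library sizes without rRNA genes, the replicate number as a block, only the groups compared, both months in 1 fit with the month as a term, and leaving out each library. The fit of both months estimates 1 KD effect shared by October and December, and is set beside KD vs. WT in December. Deviations from the group means correlated at 0.643, 0.405 and 0.175 between same-numbered libraries of KD and PARPi. Between libraries of different numbers they correlated at -0.488 to 0.234. The numbers may therefore pair these libraries, but the KD vs. PARPi values given above come from the fit without pairing. Pairing entered only through the block, as an alternative. The block changed no call of an rRNA gene for KD vs. PARPi.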

Additional observations from a re-analysis of the deposited data

Results flagged for a closer look

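In the only group of 4 libraries, October KD, 20 values were checked for a library far from the others, of which chance would give about 5%, and 2 were found, both in replicate 4. 18SrRNA-Psi:CR41602 was at 1.35 CPM there and at 0.121 to 0.276 CPM in the other 3 libraries (gap over range 0.874, against a critical value of 0.829). 28SrRNA-Psi:CR45848, with 14 counts in replicate 4 and 4 to 6 in the others, was at 0.22 CPM there and at 0.0631 to 0.0827 CPM in the others (gap over range 0.875).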

How the results depend on the processing

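Among settings other than leaving out a library, the number of rRNA genes called for PARPi vs. WT was 0 with filterByExpr and 0 with only the groups compared, where it was 1. It was 1 in place of 3 for KD vs. PARPi with only the groups compared, and 2 in place of 0 for the interaction with no filter. For 1 KD effect shared by both months it was 4, set beside the 2 of KD vs. WT in December. With each library left out in turn it was 0 to 1 for PARPi vs. WT, 0 to 3 for KD vs. WT in December, 1 to 2 for KD vs. PARPi, 2 to 5 for KD vs. WT in October, 0 to 1 for the interaction and 4 to 7 for WT of October vs. December. TMM-scaled totals in place of plain totals gave log2 ratios of 0.63 in place of 0.82 for the 28S sum of KD vs. WT in December, and for WT of October vs. December 1.40 in place of 1.77 for 28S, -0.18 in place of 0.17 for 18S and -0.039 in place of 0.33 for pre-rRNA, so the direction of the last 2 turns with the scale.

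With the replicate number as a block the log2 fold change turned to -0.010 for 28SrRNA-Psi:CR41609 in PARPi vs. WT, to -0.071 for its interaction and to -0.0043 for pre-rRNA:CR45847 in KD vs. PARPi, none of them called. Same-numbered libraries correlated at -0.0614 to 0.254 for KD with WT in December, -0.0129 to 0.168 for PARPi with WT and -0.00428 to 0.129 in October. With 3 such pairs in each set, these values cannot decide whether the libraries are paired. The block gave 3 rRNA genes called in place of 2 for KD vs. WT in December and 3 in place of 4 in October.

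Leaving out a library turned the sign of values near 0. Their ranges were -0.21 to 0.052 for pre-rRNA:CR45845 in WT of October vs. December, -0.14 to 0.078 for 28SrRNA-Psi:CR45851, -0.0075 to 0.26 for 28SrRNA-Psi:CR45859, -0.26 to 0.45 for 28SrRNA-Psi:CR41609, -0.0055 to 0.72 for pre-rRNA:CR45847 and -0.13 to 0.61 for 28SrRNA-Psi:CR40741 in PARPi vs. WT, -0.27 to 0.43 for pre-rRNA:CR45847 and -0.50 to 0.35 for 28SrRNA-Psi:CR40741 in KD vs. PARPi, -0.14 to 0.42 for 28SrRNA-Psi:CR40741 and -0.95 to 0.31 for pre-rRNA:CR45856 in KD vs. WT of December, -0.60 to 0.0029 for pre-rRNA:CR45856 in KD vs. WT of October, and in the interaction -0.21 to 0.093 for 28SrRNA-Psi:CR45859, -0.067 to 0.36 for 28SrRNA-Psi:CR41609 and -0.54 to 0.73 for pre-rRNA:CR45856. The cause was not tested.

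Over all genes, 34 were called for PARPi vs. WT, against 135 with DESeq2, 293 with no filter, 18 with filterByExpr and 496 with the block. For KD vs. WT in December 907 were called, against 1609 with the block and 1895 with both months, and for KD vs. PARPi 648, against 1269 with no filter and 1738 with the block. With each library left out the counts were 4 to 91, 251 to 1212 and 179 to 1608 for these 3 comparisons in the same order. Of calls for the interaction 59.1% were higher, and 47.2% with library sizes without rRNA genes.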
